A study of Mus musculus with 123 samples.

Results

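The genes described here are 6 members of the Sox family, Sox2, Sox4, Sox12, Sox13, Sox15 and Sox21. They were taken by symbol from a table of 29022 genes, and all 6 were present. Transcripts were counted in single mouse morulae or inner cell masses (ICMs) of 16 groups (48 Ctrl, 48 KO and 27 MWT embryos, 1 library each) as unique molecular identifiers (UMIs), random tags that let PCR copies be counted once. The study asked what the transcription factors Oct4 (encoded by Pou5f1) and Sox2 do before implantation, and the comparisons here ask how the Sox genes stood when either factor was missing.

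Embryos came from an Oct4 line (68 embryos) and a Sox2 line (55 embryos), and all carry the strain label B6C3F1. In each line, mothers were flox/flox for the gene and carried Zp3-Cre, a transgene active in growing oocytes, so that every Ctrl and KO embryo lacked the maternal copy. Fathers were heterozygous for a null allele marked with mKO2 (Oct4) or EGFP (Sox2). The KO embryos were therefore maternal-zygotic knockouts, and the Ctrl embryos were maternal knockouts that kept 1 paternal copy. Embryos labelled MWT came from mothers whose gene was intact. Morulae were taken at E2.75, the early ICM group at E3.75 and the late one at E4.5. ICMs were isolated by immunosurgery, in which antibody and complement lyse the outer trophectoderm, after culture from E2.5 with 1 µM PD0325901, a MEK inhibitor (MEKi) used to suppress primitive endoderm. The labels of the 5 Oct4 MWT early ICMs give no MEKi treatment, so whether they were cultured with it is not settled. Stage, MEKi culture and surgery thus changed together between morula and ICM. Ctrl and KO groups had 8 embryos at each stage of each line. There were 7 Oct4 MWT morulae, 5 Oct4 MWT early ICMs, 8 Oct4 MWT late ICMs and 7 Sox2 MWT early ICMs. The Oct4 MWT ICMs were placed by their titles, because their source names give an earlier stage (E2.75 morula for the early and E3.75 early ICM for the late ones), so their embryonic day is uncertain as well. Each targeted allele was derived from embryonic stem cells, and the labels do not tie embryos to litters.

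Sox proteins bind DNA through a high-mobility-group (HMG) box that recognises short words close to ACAAAG and bends the helix, and most act together with a partner factor. In pluripotent cells Sox2 and Oct4 bind side by side on joined SOX and octamer motifs, and in the mouse embryo Sox2 is known as an early marker of inner cells. Because the HMG box is shared, members of the family that are present in the same cell can in principle occupy the same words. The groups of the family used below are B (Sox2 and the repressor Sox21), C (Sox4 and Sox12), D (Sox13, which lacks a recognised activation domain) and G (Sox15, whose HMG box is close to that of Sox2).

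Promoters are shown for Sox2, Sox21 and Sox15, the 3 genes called from morula to early ICM in every line and genotype compared. They are the RefSeq windows of the mouse build GRCm38.p6, from 250 bases before to 50 bases after the annotated gene start, and all 6 members had a window. Capitals mark the SOX word ACAAAG and its variants, among which ACAATG was searched together with ACAATA and, as the loosest, ACAAAA. They also mark the octamer word ATGCAAA. Each word was searched on both strands, and no match overlapped another.

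Sox2, chr3:34649745-34650044, plus strand: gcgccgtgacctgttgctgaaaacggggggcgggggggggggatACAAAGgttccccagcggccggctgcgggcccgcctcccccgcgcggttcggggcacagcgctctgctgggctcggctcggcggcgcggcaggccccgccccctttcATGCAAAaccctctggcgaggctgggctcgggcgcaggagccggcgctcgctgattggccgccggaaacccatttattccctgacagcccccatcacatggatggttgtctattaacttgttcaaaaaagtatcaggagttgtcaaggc
Sox21, chr14:118236981-118237280, minus strand: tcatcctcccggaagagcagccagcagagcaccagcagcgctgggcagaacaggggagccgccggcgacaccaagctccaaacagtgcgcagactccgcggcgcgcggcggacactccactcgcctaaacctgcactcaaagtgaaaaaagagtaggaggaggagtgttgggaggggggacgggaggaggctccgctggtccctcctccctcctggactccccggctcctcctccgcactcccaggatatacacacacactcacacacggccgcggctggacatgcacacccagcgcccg
Sox15, chr11:69654787-69655086, plus strand: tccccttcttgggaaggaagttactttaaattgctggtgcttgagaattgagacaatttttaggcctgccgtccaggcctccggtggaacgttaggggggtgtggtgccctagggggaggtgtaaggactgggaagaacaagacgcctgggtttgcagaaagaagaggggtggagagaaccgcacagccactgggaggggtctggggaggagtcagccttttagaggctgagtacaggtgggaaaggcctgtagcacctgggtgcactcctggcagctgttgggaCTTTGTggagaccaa

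The Sox2 window held ACAAAG from position -206 and ATGCAAA from position -99, counted from the gene start. The Sox15 window held ACAAAG on the opposite strand (read as CTTTGT) from position 35. The Sox12 window held ATGCAAA from position -195, and no searched word was found in the Sox4, Sox13 or Sox21 windows. Of all 32544 RefSeq mouse promoters, 18.7% held ACAAAG, 12.4% ACAATG, 8.82% ACAATA and 18.3% ACAAAA, so that 44.2% held at least 1 SOX word, and 4.65% held ATGCAAA. The matches are descriptions of letters in these windows. The RefSeq start lay 410 bases upstream of the start in the deposited table for Sox2 and 277 bases upstream for Sox15, and at the same base for Sox21.

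In the gene coordinates of the deposited table (mm10), Sox2 is on chr3:34650405-34652461 within the long RNA gene Sox2ot on the same strand. Sox4 (chr13:28948919-28953713), Sox12 (chr2:152393611-152398063), Sox13 (chr1:133382303-133424377) and Sox21 (chr14:118233232-118237030) are on the minus strand, and Sox15 (chr11:69655314-69656727) is on the plus strand. Sox15 overlaps Mpdu1, Sox21 overlaps Gm4675 and Sox4 overlaps Gm26735, each on the opposite strand. Whether the counting used strand is not stated in the sources used here, so shared bases could add reads to either gene. Sox2ot itself had 56 UMIs in all embryos together and at most 9 in any group. Gm4675 fell from a mean of 9.72 CPM in Oct4 Ctrl morulae to 4.12 CPM in Oct4 Ctrl early ICMs, the opposite direction to Sox21, and Mpdu1 had a mean between 54.5 and 116 CPM in every group.

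Libraries held 525755 to 1344035 UMIs. Levels are given as CPM, the UMIs of a gene scaled to 1000000 UMIs of the embryo, and no gene is ranked against another by level. Sums over genes add their UMIs. Fold changes are log2 values of a fit over all tested genes (edgeR, quasi-likelihood), and a call required an adjusted p under 0.05 together with a change of 1 log2 unit or more. All 6 members passed the detection filter. Among 416 pairs of libraries of 1 group, none differed by as little as sampling noise (lowest chi-square per gene 2.41). Every ICM held epiblast transcripts, with a summed level of 10 epiblast markers of at least 2724 CPM outside Oct4-KO late ICMs and of at least 699 CPM there. Morulae had sums of 2548 to 5781 CPM, so this sum does not tell an ICM from a morula.

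Sox2, the targeted gene of the Sox2 line, checks the labels. In Sox2 Ctrl morulae it had 2.91 (lowest), 12.4 (median) and 34.2 CPM (highest). In Sox2-KO morulae the values were 0, 1.81 and 3.32 CPM, with 14 UMIs over 8 embryos. The highest KO morula lay just above the lowest Ctrl morula. The fold change was -2.97 ± 0.55 (SE) with an edgeR adjusted p of 0.00549, and Sox2 was the single gene called among 14053 tested genes, or 0.00712%. Without Ctrl replicate 14, the highest embryo, the adjusted p was 0.105. After thinning every embryo to the lowest total of UMIs it was 0.405, with a fold change of -3.11.

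In Sox2 Ctrl early ICMs Sox2 had 72.6, 94.0 and 194 CPM, against 7.74, 24.3 and 36.4 CPM in the Sox2-KO. In late ICMs the Ctrl values were 94.2, 169 and 299 CPM and those of the KO 8.09, 13.7 and 29.3 CPM. Every KO ICM lay below every Ctrl ICM of its stage. Fold changes were -2.12 ± 0.31 (SE, edgeR adjusted p 2.92e-07) in early and -3.35 ± 0.32 (adjusted p 8.05e-14) in late ICMs. Sox2-KO ICMs still held 176 UMIs at the early and 108 at the late stage. The floxed segment ends within the 3′ untranslated region of Sox2 and the libraries were enriched for 3′ ends, so transcript beyond that point may be counted, and the count is a limited check of the deletion. In whole morulae and ICMs, fewer cells of a type and less RNA per cell cannot be told apart.

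In Oct4-KO embryos Sox2 was called lower in late ICMs and was not called at the earlier stages. Sox2 in Oct4 Ctrl and Oct4-KO morulae had means of 22.1 ± 11.4 and 21.2 ± 6.09 CPM (SD, n = 8 each), and the difference of 0.01 (95% interval -0.66 to 0.69) was not called. Oct4 Ctrl early ICMs had 85.1, 132 and 190 CPM and Oct4-KO early ICMs 90.3, 135 and 297 CPM, a difference of 0.31 (-0.21 to 0.84). The groups overlapped at both stages, and 2 of 8 Oct4-KO early ICMs, at 207 and 297 CPM, were above the highest Ctrl embryo. In late ICMs, Oct4 Ctrl embryos had 130, 324 and 459 CPM and Oct4-KO embryos 9.36, 83.9 and 222 CPM. All Oct4-KO late ICMs (8 of 8) were below the median of Ctrl, although the ranges overlapped. The fold change was -1.62 ± 0.27 (SE, edgeR adjusted p 1.03e-06), and it was -2.15 and -1.22 within the embryos numbered 1- and 2- in the labels, called in each. The KO effect on Sox2 in the Oct4 line differed between late and early ICMs by -1.93 ± 0.38 (edgeR adjusted p 0.000633), in a contrast that called 3.11% of genes.

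**Figure D1:**
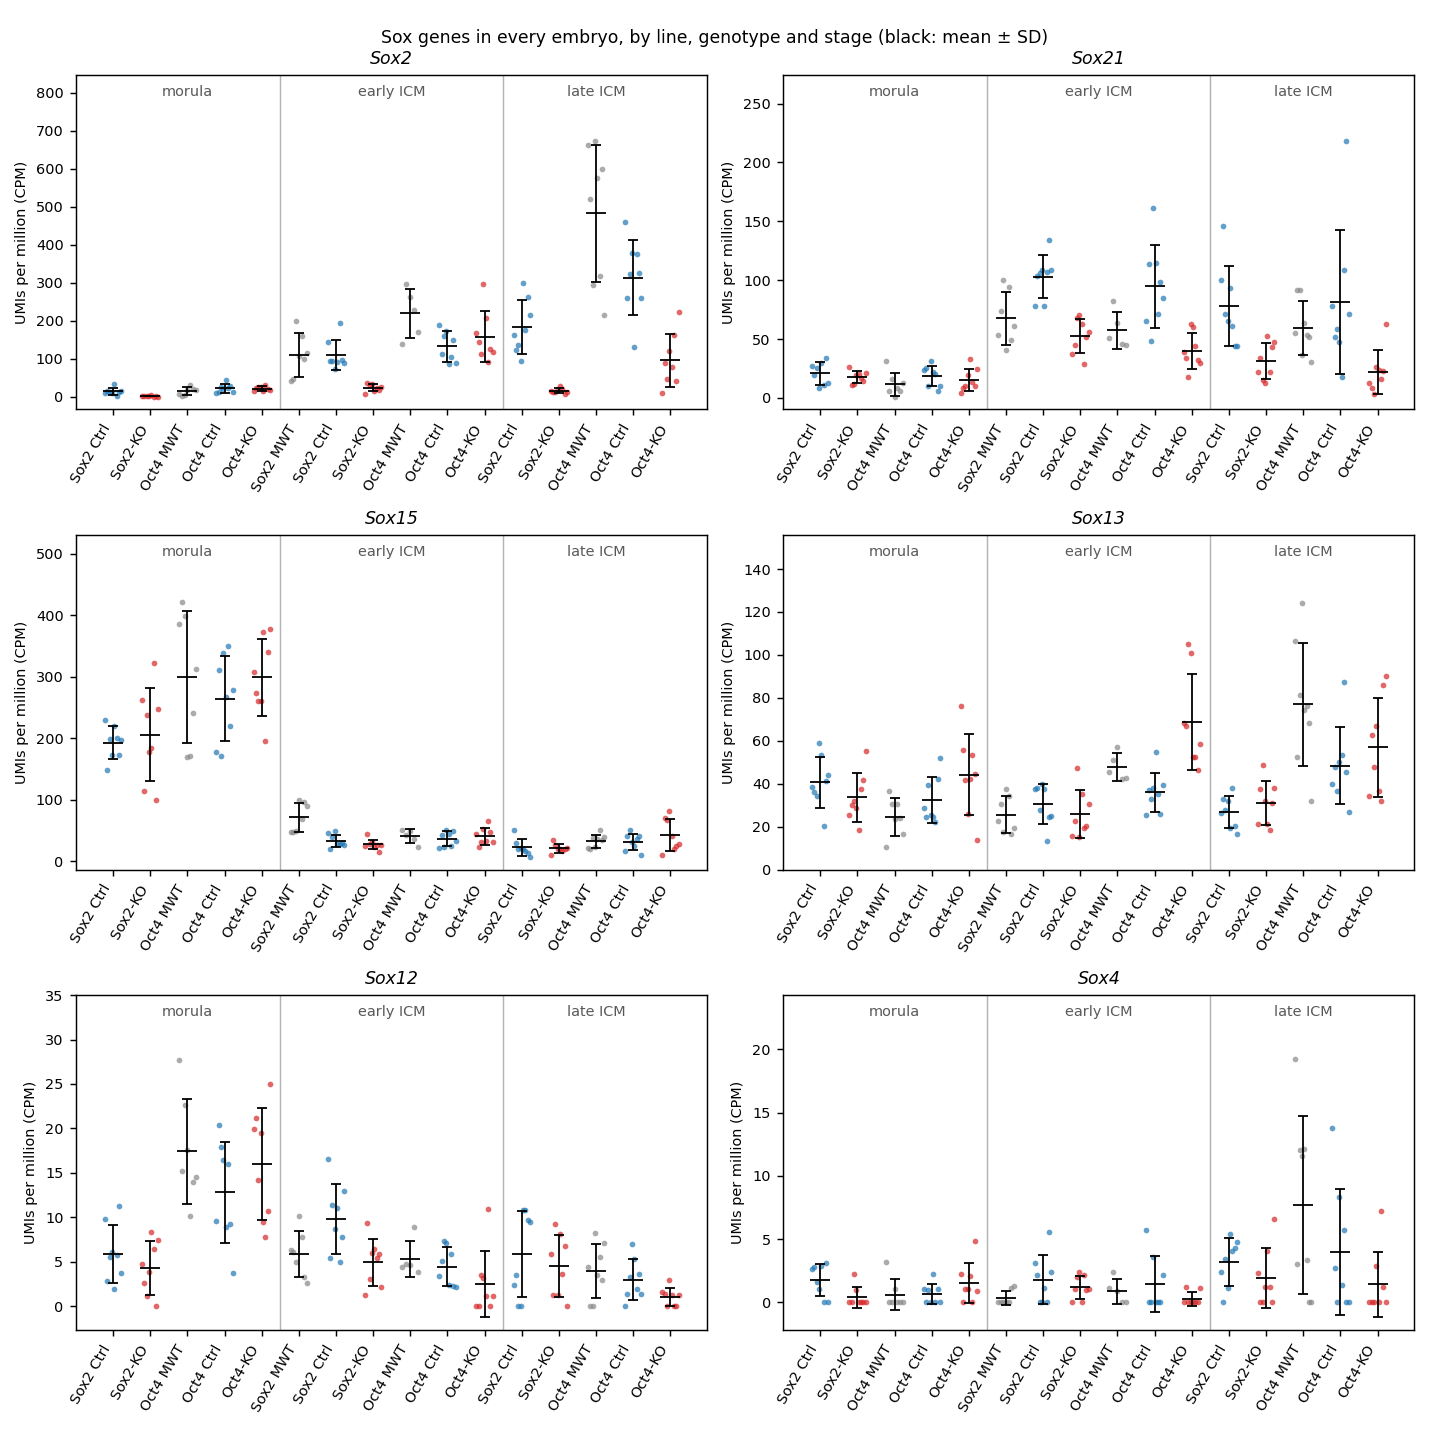
Each point is 1 embryo, with CPM on the y axis of each panel and the 16 groups on the x axis, ordered by stage; grey marks MWT, blue Ctrl and red KO, and black bars give mean ± SD. Sox15 is highest in morulae, Sox21 is higher in ICMs, Sox2 is higher in ICMs than in morulae of the same line and genotype, and Sox12 and Sox4 stay low in all groups, with means of at most 17.4 and 7.66 CPM.

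Sox21, a group B repressor known in the preimplantation embryo for restraining Cdx2, was, besides Sox2, the member called lower in late ICMs of both KO lines. In Sox2 Ctrl early ICMs it had 77.8, 107 and 134 CPM, and in Sox2-KO early ICMs 29.0, 53.9 and 70.0 CPM. These groups did not overlap. The fold change of -0.90 ± 0.29 (SE) had an edgeR adjusted p of 0.0403 but was smaller than the minimum for a call; 3.27% of genes were called in this comparison and 7.04% had an adjusted p under 0.05. In late ICMs the Ctrl embryos had 43.8, 68.5 and 146 CPM and the Sox2-KO embryos 12.2, 28.0 and 52.5 CPM. The KO embryos were below the median of Ctrl in 8 of 8 cases, with some overlap. There the fold change was -1.22 ± 0.31 (SE, edgeR adjusted p 0.00332), where 6.95% of genes were called. It was -2.14 (adjusted p 0.000313) among embryos numbered 1- and -0.39 (adjusted p 0.510) among those numbered 2-.

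In the Oct4 line, Sox21 had 48.6, 92.0 and 161 CPM in Ctrl early ICMs and 17.7, 36.7 and 62.5 CPM in Oct4-KO early ICMs. Late Ctrl ICMs had 17.4, 64.7 and 218 CPM and late Oct4-KO ICMs 3.49, 19.3 and 63.0 CPM. At both stages 8 of 8 KO embryos fell short of the median of Ctrl and the ranges overlapped. Fold changes were -1.16 ± 0.30 (SE, edgeR adjusted p 0.00240) in early ICMs, where 10.9% of genes were called, and -1.75 ± 0.33 (adjusted p 1.38e-05) in late ICMs, where 18.1% were called. Within late ICMs numbered 1- and 2- they were -1.95 and -1.94, each called.

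Sox21 in morulae showed no called difference. Sox2 Ctrl and Sox2-KO morulae had means of 20.8 ± 9.50 and 17.7 ± 5.06 CPM (SD, n = 8 each), with a fold change of -0.22 (95% interval -0.91 to 0.48). Those of the Oct4 line had means of 18.7 ± 8.71 and 15.4 ± 9.46 CPM and a fold change of -0.22 (-0.95 to 0.51). The effects of losing Sox2 and of losing Oct4 on Sox21 differed by 0.0049 in morulae, 0.26 in early and 0.53 in late ICMs, and none of these differences was called. Their 95% intervals were -0.98 to 0.99, -0.57 to 1.09 and -0.39 to 1.44, which reached close to or past 1 log2 unit at each stage.

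Sox15, the group G gene studied in embryonic stem cells and trophoblast giant cells, was abundant in morulae and was not called in either knockout at any stage. Sox2 Ctrl morulae had 148, 198 and 230 CPM and Sox2-KO morulae 99.5, 210 and 323 CPM. Oct4 Ctrl morulae had 171, 273 and 350 CPM and Oct4-KO morulae 195, 291 and 378 CPM. The KO ranges lay across the Ctrl ranges in both lines. Fold changes were 0.10 (95% interval -0.34 to 0.53) and 0.23 (-0.20 to 0.66). In Sox2-KO ICMs they were -0.23 (-0.78 to 0.31) early and 0.0090 (-0.59 to 0.61) late. In Oct4-KO ICMs they were 0.25 (-0.28 to 0.78) early and 0.57 (0.01 to 1.13) late, the latter with an edgeR adjusted p of 0.115. In 5 of the 6 comparisons the interval of Sox15 ended below 1 log2 unit.

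Sox13 stood higher in Oct4-KO early ICMs, with an adjusted p under 0.05 but without a call. In early ICMs of the Oct4 line, Ctrl embryos had 25.3, 36.0 and 54.7 CPM and Oct4-KO embryos 46.5, 62.6 and 105 CPM. Each of the 8 KO embryos was above the median of Ctrl, and the lowest KO embryos overlapped the highest Ctrl embryo. The fold change was 1.00 ± 0.23 (SE), just short of the minimum before rounding, with an edgeR adjusted p of 0.000669; in this comparison 21% of genes had an adjusted p under 0.05. Leaving out 1 embryo at a time, it was called in 11 of 16 fits. In Sox2-KO early ICMs Sox13 had 15.4, 21.6 and 47.2 CPM against 13.5, 32.5 and 39.7 CPM in Ctrl, a fold change of -0.17 (95% interval -0.66 to 0.33). The KO effects of the lines differed by -1.17 ± 0.34 (SE, edgeR adjusted p 0.0187), and this difference was called, as were 5.52% of genes. Over the embryos whose numbers occur in both groups, the difference was -0.78 with the number as a block and was not called.

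At the other stages Sox13 was not called either. In morulae the fold changes were -0.27 (95% interval -0.74 to 0.19) in Sox2-KO and 0.49 (0.03 to 0.96, edgeR adjusted p 0.373) in Oct4-KO. In late ICMs they were 0.30 (-0.20 to 0.81) and 0.34 (-0.13 to 0.81). Oct4-KO morulae had a mean of 44.2 ± 19.01 CPM against 32.4 ± 10.8 CPM in Ctrl (SD, n = 8 each). The share of genes called in Oct4-KO morulae was 0.804%.

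**Figure D2:**
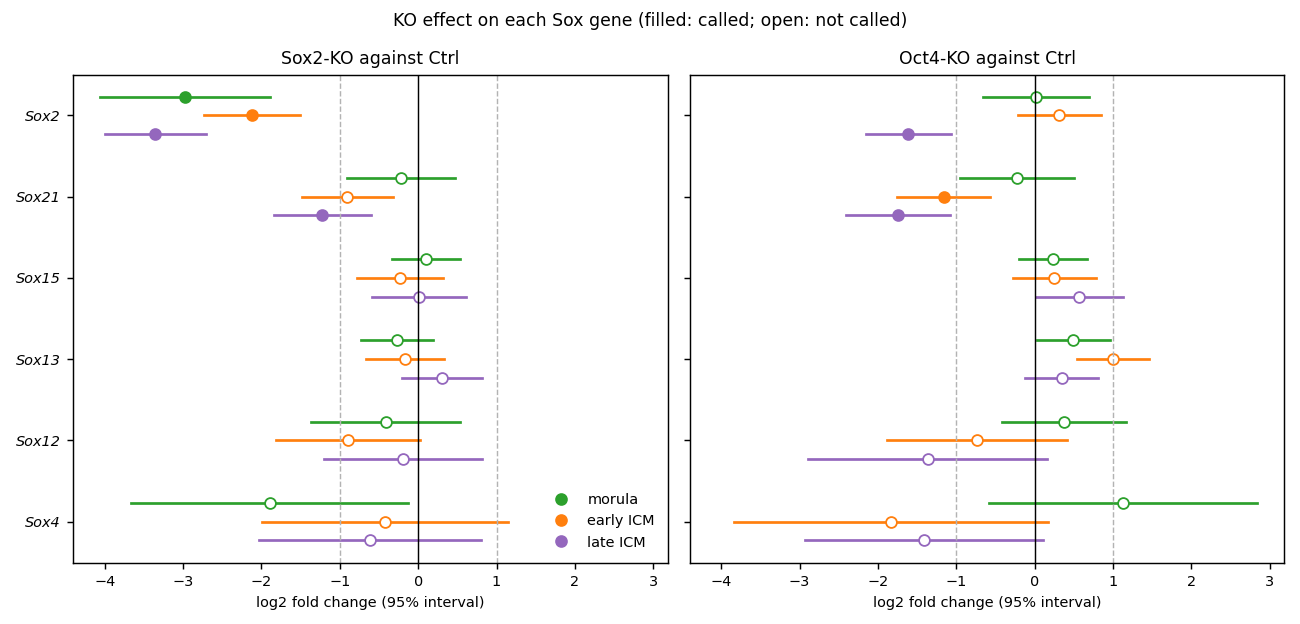
The x axis gives the log2 fold change of KO against Ctrl with its 95% interval for each of the 6 genes on the y axis, coloured by stage; filled points were called and dashed lines mark the minimum fold change. Every filled point lies left of 0, at Sox2 and Sox21.

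Sox12 and Sox4, group C genes known from neural and lymphoid development, had few UMIs, so sums over the 8 embryos of a group are given. Sox12 had 51 UMIs in Sox2 Ctrl and 37 in Sox2-KO morulae, 74 and 37 in early ICMs, and 40 and 31 in late ICMs. Corrected for total UMIs, the KO to Ctrl ratios were 0.750 (95% Poisson interval 0.478 to 1.17), 0.503 (0.329 to 0.756) and 0.823 (0.498 to 1.35). These intervals cover counting error only. Sox12 was below the median of Ctrl in 8 of 8 Sox2-KO early ICMs, but the fitted fold change of -0.90 ± 0.46 (SE) had an edgeR adjusted p of 0.268. Among Oct4-line embryos Sox12 had 101 UMIs in Ctrl and 129 in Oct4-KO morulae (ratio 1.25, 0.953 to 1.63), 30 and 17 in early ICMs (0.555, 0.287 to 1.04), and 16 and 6 in late ICMs (0.334, 0.107 to 0.898). Of the 17 UMIs, 9 came from Oct4-KO replicate 14, without which the fitted fold change in early ICMs moved from -0.73 to -1.62, not called in either fit. The fold change in Oct4-KO late ICMs was -1.37 ± 0.77 (SE) with an edgeR adjusted p of 0.173.

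Sox4 had 15 UMIs in Sox2 Ctrl and 3 in Sox2-KO morulae, 13 and 9 in early ICMs, and 22 and 12 in late ICMs. Its KO to Ctrl ratios were 0.207 (95% Poisson interval 0.0384 to 0.731), 0.696 (0.263 to 1.76) and 0.580 (0.261 to 1.22). Oct4-line embryos had 5 and 12 UMIs in morulae (ratio 2.34, 0.768 to 8.48), 10 and 2 in early ICMs (0.196, 0.0209 to 0.919), and 22 and 8 in late ICMs (0.324, 0.125 to 0.755). Sox4 was seen in 3 of 8 Oct4-KO late ICMs, and 5 of its 8 UMIs came from replicate 2-5. Without that embryo its fold change in late ICMs was -2.53 and was called (edgeR adjusted p 0.0209); with all embryos it was -1.42 ± 0.76 (SE, edgeR adjusted p 0.153). No other fold change of Sox4 between KO and Ctrl was called.

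Counted over the 6 members, 1, 1 and 2 were called lower in Sox2-KO morulae, early and late ICMs, and 0, 1 and 2 in Oct4-KO. Each Sox2-KO count includes Sox2, the targeted gene, which was the only member called in morulae and early ICMs. Sox21 was the other in late ICMs. No member was called higher in any of these 6 comparisons. Of all tested genes, 0.00712%, 3.27% and 6.95% were called in the Sox2-KO comparisons and 0.804%, 10.9% and 18.1% in the Oct4-KO comparisons, in either direction. Called lower were 0.00712%, 1.69% and 3.61% of genes in Sox2-KO and 0.626%, 6.11% and 8.85% in Oct4-KO. The median log2 fold change of the 6 was -0.34, -0.66 and -0.40 in the Sox2 line, where Sox2 itself is the targeted gene, and 0.30, -0.24 and -1.39 in the Oct4 line. The median over all tested genes lay between -0.01 and 0.01 in each comparison. The sum of the 5 members other than Sox2 was 262 ± 33.2 and 262 ± 82.0 CPM in Sox2 Ctrl and Sox2-KO morulae (SD, n = 8 each). In early ICMs it was 178 ± 18.7 CPM in Ctrl and 112 ± 24.5 CPM in KO, and in late ICMs 136 ± 43.8 and 89.8 ± 22.1 CPM. In early ICMs the highest KO embryo, at 149 CPM, was below the lowest Ctrl embryo, at 154 CPM. Sox21 alone had means of 103 ± 18.1 and 52.5 ± 14.7 CPM in these groups. No p is given for these sums, whose members were chosen with results known. For Oct4-line embryos the sum was 329 ± 70.3 and 376 ± 65.5 CPM in Ctrl and KO morulae, 173 ± 50.7 and 152 ± 32.1 CPM in early ICMs, and 168 ± 70.4 and 124 ± 45.1 CPM in late ICMs.

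**Figure D3:**
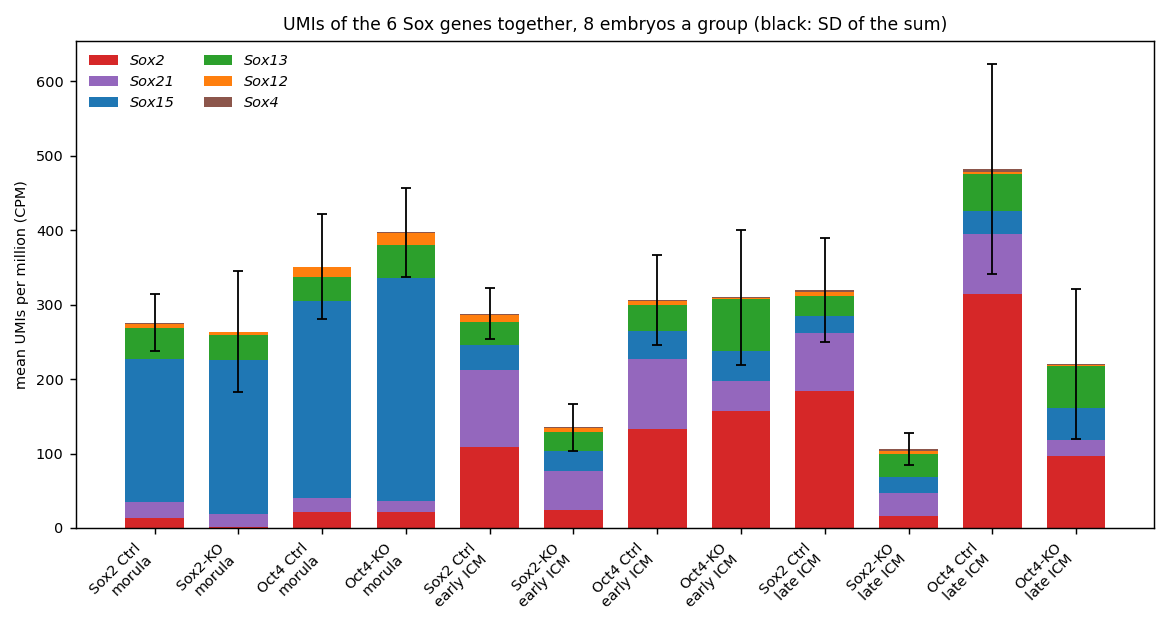
Bars stack the mean CPM of the 6 genes on the y axis for the 12 Ctrl and KO groups on the x axis, 8 embryos each, and the black line is the SD of the sum. The Sox2-KO ICM bars, whose sum includes the deleted gene Sox2, are the lowest, at 135 CPM early and 106 CPM late. Without Sox2 their means are 112 and 89.8 CPM, against 178 and 136 CPM in Sox2 Ctrl.

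Markers of other cell types moved with genotype in the same embryos. The summed level of 13 trophectoderm markers had a median of 989 CPM in Sox2-KO and 533 CPM in Sox2 Ctrl early ICMs (ranges 660 to 2232 and 228 to 733), and 1092 and 642 CPM in late ICMs (721 to 2023 and 308 to 3052). Those of the Oct4 line were 1357 and 685 CPM in early and 3099 and 789 CPM in late KO and Ctrl ICMs (1065 to 1671, 526 to 1569, 1747 to 3439 and 319 to 1230). The 10 epiblast markers summed to a median of 1753 CPM in Oct4-KO and 4916 CPM in Oct4 Ctrl late ICMs (699 to 2200 and 4226 to 6446), and to 3550 and 4960 CPM in Sox2-KO and Sox2 Ctrl late ICMs (2812 to 4601 and 4433 to 6692). The 12 primitive endoderm markers had medians of 1457 and 729 CPM in Oct4-KO and Ctrl late ICMs and of 1057 and 802 CPM in Sox2-KO and Ctrl late ICMs. In early ICMs epiblast markers were called lower in 8 of 10 cases in Oct4-KO, with sums of 2724 to 3510 CPM against 4527 to 6416 CPM in Ctrl that did not overlap, and in 5 of 10 in Sox2-KO (3193 to 3784 against 3354 to 5411 CPM). Trophectoderm markers there were called higher in 3 of 13 cases in Oct4-KO and 5 of 13 in Sox2-KO, and lower in 1 of 13 in each. Of the 11 tested primitive endoderm markers, 2 were called higher and 2 lower in Oct4-KO and 1 higher in Sox2-KO early ICMs, while 10.9% and 3.27% of all genes were called. In late ICMs, trophectoderm markers were called higher in 10 of 13 cases in Oct4-KO and in 3 of 13 in Sox2-KO, where 1 was lower, and epiblast markers lower in 9 of 10 and 5 of 10. Of 11 tested primitive endoderm markers, 5 were called lower and 2 higher in Oct4-KO late ICMs, with a median log2 fold change of -1.32 although their sum was higher, and 1 was lower in Sox2-KO late ICMs. Over all genes 18.1% were called in Oct4-KO and 6.95% in Sox2-KO late ICMs. Of the 3 lists, Foxa2 alone was at 0 in whole early ICM groups of Ctrl and KO. Their part in the levels of Sox2, Sox21 and Sox13 was not tested.

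From morula to early ICM the members split by direction. Sox2 and Sox21 rose and Sox15 fell in every line and genotype that could be compared. In Sox2 Ctrl embryos the fold changes were 2.90 ± 0.32 for Sox2, 2.25 ± 0.31 for Sox21 and -2.58 ± 0.25 for Sox15 (SE, edgeR adjusted p 4.85e-13, 2.04e-09 and 1.18e-15). In this comparison 31.9% of all tested genes were called. In Oct4 Ctrl embryos they were 2.48, 2.22 and -2.97, with 29% called, and in Oct4 MWT embryos, whose early ICM labels conflict on stage and give no MEKi, 3.77, 2.18 and -3.03, with 27.6% called. In each of these 3 comparisons the groups did not overlap for any of the 3 genes. The share of all genes without overlap was not counted. Cell type markers moved as well. From Sox2 Ctrl morula to early ICM, 7 of 13 trophectoderm markers were called lower and 0 higher. Of 11 tested primitive endoderm markers 7 were higher and 2 lower, and of 10 epiblast markers 5 were higher and 1 lower. Their part in these changes was not tested.

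The same 3 genes were called, in the same directions, in the knockouts. In Sox2-KO embryos the Sox2 count rose from a mean of 1.57 to 23.6 CPM, and the fold changes of Sox21 and Sox15 were 1.56 and -2.92, with 32.5% of genes called. In Oct4-KO embryos the values were 2.78 for Sox2, 1.28 for Sox21 and -2.95 for Sox15, with 26.3% called. Early Oct4-KO ICMs had 157 ± 66.8 CPM of Sox2 against 133 ± 40.3 CPM in Ctrl, and 39.8 ± 15.3 CPM of Sox21 against 94.8 ± 35.5 CPM (SD, n = 8 each).

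Sox12 fell from morula to early ICM in the Oct4 line and was not called in the Sox2 line. Fold changes were -1.61 ± 0.47 in Oct4 Ctrl, -2.72 ± 0.50 in Oct4-KO and -1.84 ± 0.51 in Oct4 MWT (SE, edgeR adjusted p 0.00265, 3.43e-06 and 0.00185). Sox2-line values were 0.68 (95% interval -0.20 to 1.57) in Ctrl and 0.20 (-0.80 to 1.19) in KO. The difference between the lines was not tested. Oct4 Ctrl morulae had a mean of 12.8 ± 5.69 CPM and Sox2 Ctrl morulae 5.87 ± 3.27 CPM (SD, n = 8 each). Sox13 rose by 0.83 in Oct4 MWT (edgeR adjusted p 0.0120) and by 0.55 in Oct4-KO (0.0391), under the fold minimum. In the Sox2 line its values were -0.48 in Ctrl (0.0832) and -0.37 in KO (0.202), and in Oct4 Ctrl 0.05 (0.899), so it was not called in any of these groups.

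Between early and late ICM fewer members moved. Sox2 rose by 1.30 ± 0.27 in Oct4 Ctrl (SE, edgeR adjusted p 5.01e-05; 15.6% of genes called) and by 1.12 ± 0.32 in Oct4 MWT (adjusted p 0.00463; 13.2% called). In the 5 Oct4 MWT early ICMs Sox2 was at 139, 169, 228, 263 and 297 CPM, and late MWT ICMs had 215, 548 and 673 CPM. In Sox2 Ctrl embryos, which carry 1 intact Sox2 copy, the change was 0.71 (95% interval 0.18 to 1.24, edgeR adjusted p 0.0865), and 2.9% of genes were called. Oct4-KO embryos had a change of -0.63 (-1.17 to -0.09, adjusted p 0.0646; 16% called) and Sox2-KO embryos one of -0.52 (-1.24 to 0.20; 1.07% called), and no member was called in either. Sox4 had 4 UMIs in the 5 early and 40 in the 8 late Oct4 MWT ICMs, a fold change of 2.96 ± 0.87 (SE, edgeR adjusted p 0.00638). In 2 of the 8 late embryos no Sox4 UMI was counted. Without Oct4 MWT early ICM replicate 1, Sox2 was no longer called and Sox4 still was.

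The KO effect on Sox2, which is itself the targeted gene of the Sox2 line, differed between the lines by -2.99 in morulae (0.356% of genes called), -2.44 in early ICMs and -1.74 in late ICMs (6.3% called), each called. The morula call was lost after thinning to the lowest total of UMIs (-3.33, edgeR adjusted p 0.0565) and on rlog values (-1.29, limma adjusted p 0.115), and the late ICM call on rlog values (-1.09, limma adjusted p 0.0507) and within embryos numbered 1- (-0.94, edgeR adjusted p 0.486). Between late and early ICMs of the Sox2 line, the KO effect on Sox2 differed by -1.23 ± 0.45 (SE, edgeR adjusted p 0.279), and 0.0427% of genes were called. Apart from Sox2 and Sox13, no member was called in any contrast of KO effects.

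Ctrl embryos of the lines differ in Sox2 copies, since the Oct4 line has an unedited Sox2 gene, but line and copy number cannot be told apart. Sox2 had a mean of 183 ± 70.6 CPM in Sox2 Ctrl and 314 ± 99.4 CPM in Oct4 Ctrl late ICMs (SD, n = 8 each). Sox2 Ctrl late ICMs were below the median of Oct4 Ctrl in 8 of 8 cases, and the fold change was -0.84 ± 0.26 (SE, edgeR adjusted p 0.0383). It was -0.25 (95% interval -0.79 to 0.28) in early ICMs and -0.67 (-1.37 to 0.04) in morulae. Sox13 was lower in Sox2 Ctrl late ICMs as well, by a fold change of -0.91 ± 0.25 (adjusted p 0.0152). Neither reached the minimum for a call, and no member was called in morulae, early or late ICMs, where 6.98%, 9.94% and 2.63% of genes were called. Sox12 came closest, at -1.13 (adjusted p 0.0517) in morulae and 1.17 (adjusted p 0.0597) in early ICMs, in opposite directions.

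Sox15 was lower in Sox2 Ctrl early ICMs, from mothers that lost Sox2 in the oocyte, than in Sox2 MWT early ICMs. The MWT embryos had 47.8, 68.9 and 100.1 CPM and the Ctrl embryos 19.6, 29.3 and 48.4 CPM. Every Ctrl embryo was below the median of MWT, with a slight overlap of the ranges. The fold change was -1.10 ± 0.27 (SE, edgeR adjusted p 0.00429), and 2.58% of genes were called. Mpdu1, which overlaps Sox15, had means of 98.1 ± 21.8 and 67.4 ± 13.3 CPM in the same groups (SD, n = 7 and 8), and its part in the Sox15 difference was not tested. Oct4 Ctrl and Oct4 MWT embryos differed in no called member in morulae, early or late ICMs, where 0.0646%, 0.373% and 0.797% of genes were called. Sox2 in early ICMs had a fold change of -0.70 ± 0.31 (SE, edgeR adjusted p 0.409).

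Among embryos with an intact maternal copy, Sox2 MWT and Oct4 MWT early ICMs differed in no called member, with 8.07% of genes called. Sox2 had a mean of 109 ± 57.2 CPM in Sox2 MWT (SD, n = 7) and 219 ± 65.2 CPM in Oct4 MWT (n = 5), with overlap and a fold change of -0.96 ± 0.32 (SE, edgeR adjusted p 0.0262), just under the fold minimum. Sox13 was at 42.3, 42.8, 45.7, 51.1 and 57.3 CPM in the 5 Oct4 MWT embryos and at 16.5, 22.8 and 37.7 CPM in the 7 Sox2 MWT embryos. The groups did not overlap, and the fold change was -0.85 ± 0.28 (SE, edgeR adjusted p 0.0239), under the fold minimum. Sox15 was at 23.8, 35.7, 42.8, 49.0 and 51.3 CPM in those 5 embryos, against 47.8, 68.9 and 100.1 CPM in Sox2 MWT, a fold change of 0.87 ± 0.30 (SE, edgeR adjusted p 0.0307). In Sox2 MWT, 4 of 10 epiblast markers were called lower and 2 of 11 tested primitive endoderm markers higher. The epiblast sums had medians of 4312.5 CPM in Sox2 MWT and 6053 CPM in Oct4 MWT. Their part in these differences was not tested.

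Ranked over the 16 groups, the mean Sox2 level ran from 1.57 CPM in Sox2-KO morulae to 482 CPM in Oct4 MWT late ICMs. Of the 15 pairs of neighbouring groups in that order, 1 was separated by more than both SDs, Sox2-KO below Sox2 Ctrl morulae. For Sox15, 1 pair was separated, between the lowest morula group, at 193 ± 26.7 CPM, and the highest ICM group, Sox2 MWT early ICMs. For Sox21, Sox13, Sox12 and Sox4 no neighbours were separated. With 16 groups in order, the lack of a gap between neighbours cannot show that levels change gradually. For Sox21, every morula group ranked below every ICM group. Across the 16 group means on a log2 scale, Sox2 and Sox21 had a Pearson correlation of 0.72, Sox2 and Sox15 one of -0.67, Sox15 and Sox21 one of -0.79, and Sox12 and Sox15 one of 0.68. These describe 16 points that share stages and lines.

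Of 10269 genes with at least 5 CPM in some group, the pattern most like that of Sox2 by Pearson correlation was that of Tmem19 (r = 0.94 over the 16 groups), followed by Sik1 and Thumpd2. Sox21 was most like Triml1 (0.94), Ubr2 and Jmjd1c, and Pdxk and Prl3b1 (0.98 each) were among the 3 genes most like Sox15. For Sox13 the list was Gadd45g (0.84), Lysmd4 and Pomk and for Sox12 Plod3 (0.92), Kif18b and Fam207a. Arhgef10l and Gpr180 (0.90 each) were among the 3 genes most like Sox4. No member was among the 3 genes most like another member. These names depend on the measure: by Spearman correlation the genes most like Sox2 were Tk2 (0.96), Ffar2 and Lifr, and over the 12 Ctrl and KO groups alone the lists of Sox12 and Sox13 shared no gene with those above.

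Other Sox genes, apart from Sox17, had few UMIs. Of 13 in the table, Sox6 and Sox17 passed the detection filter. Sox1, Sox3, Sox5, Sox8, Sox10 and Sox14 had 11, 5, 4, 1, 3 and 0 UMIs over all embryos, Sox9 had 89 and Sox30 had 44. Sox1 and Sox3, the closest relatives of Sox2, had 0 and 1 UMI in Sox2-KO early ICMs and none in Sox2-KO late ICMs. A count of 0 over a group allows up to 3 UMIs. Sox18 was seen in morulae alone, with 34 UMIs in all.

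Sox17, a group F gene of primitive endoderm, was the other Sox gene with calls. It had 53 UMIs in Oct4 Ctrl and 1 in Oct4-KO early ICMs (ratio 0.0185, 95% Poisson interval 0.000459 to 0.107), and 462 and 4 in late ICMs (0.00771, 0.00209 to 0.0199). Both were called, with edgeR adjusted p of 0.0491 and 2.17e-06, although 287 of the 462 UMIs came from 1 Ctrl embryo. Oct4 MWT late ICMs, from mothers with the intact gene and of uncertain day, had 10 UMIs in all, and Ctrl was called higher than MWT by 5.42 (edgeR adjusted p 0.000208). Sox2-line embryos had 388 and 170 UMIs in early and 643 and 352 in late Ctrl and KO ICMs, with fold changes of -1.10 (adjusted p 0.363) and -0.70 (0.510). Embryos spread widely, from 1.04 to 104 CPM among Sox2 Ctrl early ICMs. Sox7, also of group F, had 81 and 15 UMIs in Sox2 Ctrl and KO late ICMs (ratio 0.197, 0.105 to 0.344), where 48 of the 81 came from 1 embryo. In the Oct4 line it had 26 and 1, where 17 of the 26 came from 1 embryo and 3 of 8 Ctrl embryos had any.

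Sox6, a group D relative of Sox13, was not called in any KO comparison. Its UMI sums were 13 and 32 in Sox2 Ctrl and KO early ICMs (ratio 2.48, 95% Poisson interval 1.26 to 5.14) and 16 and 30 in late ICMs (1.99, 1.05 to 3.91). Those of the Oct4 line were 15 and 33 (2.15, 1.14 to 4.27) and 25 and 51 (1.82, 1.10 to 3.06). All 4 ICM ratios were above 1, but with embryos as replicates the edgeR adjusted p were 0.232, 0.272, 0.188 and 0.217. In morulae the ratios were below 1, with 34 and 25 UMIs in Sox2 Ctrl and KO (0.760, 0.435 to 1.31) and 28 and 11 in the Oct4 line (0.383, 0.172 to 0.794), and the adjusted p were 1 and 0.433. Sox11, of group C, had 22 UMIs in Sox2 Ctrl late ICMs and 0 in Sox2-KO late ICMs, a ratio of at most 0.145.

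**Figure D4:**
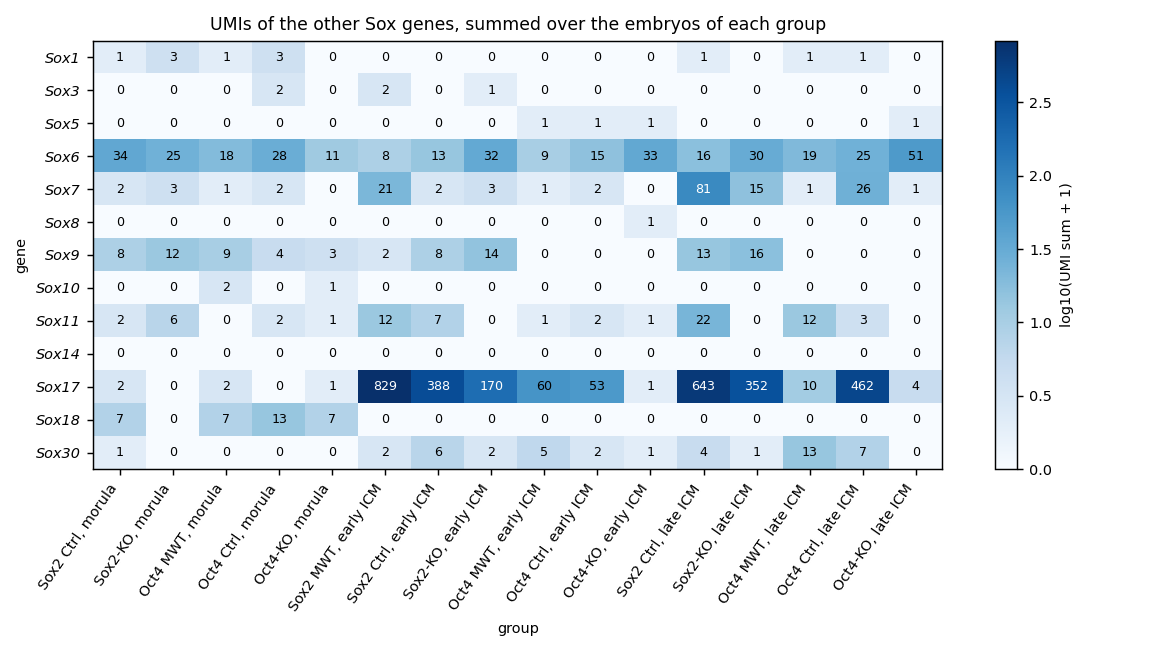
Numbers in the cells are UMIs summed over the embryos of each group (columns) for the 13 other Sox genes (rows), and shading follows log10 of the sum plus 1. Sox17 in ICMs holds most of the UMIs, up to 829 in Sox2 MWT early ICMs, and Sox6 has UMIs in every group.

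Partners and targets are given for the same comparisons. Of the POU family, whose proteins pair with Sox proteins on DNA, 9 genes were tested. None was called in Sox2-KO at any stage, against 3.27% and 6.95% of all genes in early and late ICMs. Pou5f1 itself was at 80.6 CPM in Oct4 Ctrl and 1.03 CPM in Oct4-KO early ICMs (fold change -6.07 ± 0.35, SE, edgeR adjusted p 1.28e-27), which checks the Oct4 labels, and at 20.8 against 0.405 CPM in morulae and 43.8 against 0.158 CPM in late ICMs. Besides Pou5f1, and with 10.9% and 18.1% of all genes called in early and late ICMs, Pou2f1 (-1.32) and Pou2f3 (-4.40) were lower and Pou3f3 was called higher in Oct4-KO early ICMs, and Pou2f3 (-2.12) was lower and Pou3f3 higher in late ICMs. Pou3f3 had no UMI in Oct4 Ctrl early ICMs and a mean of 1.63 CPM in the KO.

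Of 7 genes known as Sox2 targets in embryonic stem cells, 0, 3 and 4 were called lower in Sox2-KO morulae, early and late ICMs, and none higher. They were Fgf4 (-2.58 and -3.50 in early and late ICMs), Utf1 (-2.32 and -2.85), Zscan10 (-3.61 and -3.60) and, in late ICMs, the secreted protein gene Spp1 (-1.87). In Oct4-KO, 0, 4 and 5 were called lower and none higher, with Fgf4, Utf1, Spp1 and Zscan10 in early ICMs and these and Nanog (-1.19) in late ICMs. The medians of the 7 were 0.09, -1.36 and -1.87 in the Sox2 line and -0.39, -2.10 and -2.59 in the Oct4 line. The share of all genes called in early ICMs was 3.27% for Sox2-KO and 10.9% for Oct4-KO, and at the late stage it was 6.95% and 18.1%. In morulae none of the 7 was called in either knockout.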

How the data were processed

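Single-embryo libraries, enriched for 3′ ends and tagged with UMIs, were aligned by the authors to mm10 with TopHat2, assigned with featureCounts and corrected for UMIs lost or duplicated with UMI-tools and TRUmiCount, per the study's methods. The deposited counts are whole numbers of UMIs per gene, not normalized. The authors also deposited rlog values, a regularized log2 scale from DESeq2, used here as an alternative only. CPM is UMIs scaled to 1000000 UMIs of the embryo. Genes seen in at least 0.5 of the embryos of a stage were fitted with edgeR 4.0.16 in R 4.3.3 (TMM, quasi-likelihood test, Benjamini-Hochberg adjustment over all tested genes): 14053 genes over the 96 Ctrl and KO embryos, and 13923 over all embryos for comparisons with MWT. Calls required an adjusted p under 0.05 together with a change of 1 log2 unit or more. The SE is the fold change divided by the root of F. Ratios of UMI sums carry exact 95% Poisson intervals. Nothing in the labels ties embryos to litters, so p-values measure the spread between these embryos. Alternatives included limma 3.58.1 on rlog values and DESeq2 1.42.0.

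The genes named are the 6 members, other Sox genes that passed the filter or had counts to report, POU partners, known Sox2 targets, overlapping genes, and the 3 named genes with the highest correlation of group mean log2 CPM (prior count 2) among genes that reached a mean of 5 CPM in a group. Members and lists were chosen with earlier results of these data known. Chromatin data were not used here. Some genes that this rule names are not reported here.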

Additional observations from a re-analysis of the deposited data

Results flagged for a closer look

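In 11 of 96 gene and group combinations, the highest embryo stood apart from the rest by Dixon's ratio at the 95% level. The chance rate of about 1 in 20 groups holds for normally spread values. Most of these groups were Sox4 or Sox12 at few UMIs, so that rate cannot judge their number. Sox2 was at 34.2 CPM in Sox2 Ctrl morula replicate 14. Sox4, at a few UMIs per embryo, was at 2.22 CPM in Sox2-KO morula 4, 3.20 CPM in Oct4 MWT morula 1, 2.24 CPM in Oct4 Ctrl morula 15, 4.85 CPM in Oct4-KO morula 8 and 7.25 CPM in Oct4-KO late ICM 2-5. Sox12 was at 8.91 CPM in Oct4 MWT early ICM 8 and 10.98 CPM in Oct4-KO early ICM 14. Sox13 was at 87.5 CPM in Oct4 Ctrl late ICM 2-1. Sox21 was at 218 CPM in Oct4 Ctrl late ICM 2-4 and 63.0 CPM in Oct4-KO late ICM 2-7.

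KO effects differed between groups in 5 contrasts. For Sox2 the effect in the Sox2 line minus that in the Oct4 line was -2.99 in morulae, -2.44 in early and -1.74 in late ICMs. Sox2 is itself the targeted gene of the Sox2 line, so a difference between lines was built into the design. These contrasts called 0.356%, 5.52% and 6.3% of genes. The Sox2 effect in late minus early ICMs of the Oct4 line was -1.93, where 3.11% of genes were called. For Sox13 the line difference in early ICMs was -1.17. The line differences of Sox2 in morulae and late ICMs and that of Sox13 lost their calls under some alternatives.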

How the results depend on the processing

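Most counts of called members (483 of 524 values under alternatives) stayed equal or close to the main count. That tally compares numbers of members, not which members were called, and a change from 2 to 3 counted as close. Most fold changes kept their call and direction. Alternatives for comparisons of stages, lines and MWT groups were chosen after seeing the data. For Sox2-KO against Ctrl, 0 members were called in morulae after thinning to the lowest total (Sox2 at -3.11, and at -2.97 without thinning), 2 in early ICMs with no minimum fold change, and 1 in late ICMs over same-numbered embryos without a replicate block or within the embryos numbered 2-. For Oct4-KO against Ctrl in early ICMs, 2 members, Sox21 and Sox13, were called with no minimum fold change, RLE size factors, a minimum of 1 CPM in 8 embryos, thinning, DESeq2, and over same-numbered embryos with or without a replicate block. For the KO effect of the Sox2 line minus that of the Oct4 line, 0 were called in morulae after thinning or on rlog values, 1 in early ICMs on rlog values and over same-numbered embryos with or without the block, and 0 in late ICMs on rlog values or within the embryos numbered 1-. For Sox2 Ctrl against Oct4 Ctrl, 1 member (Sox12) was called in morulae with RLE, all embryos, only the groups compared or DESeq2, and in early ICMs with the last 2 of these; 2 (Sox2 and Sox13) were called in late ICMs with no minimum fold change. For Sox2 MWT against Oct4 MWT, 3 were called with no minimum fold change. The cause was not tested.

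Shared replicate numbers did not meet the criterion for pairing (every correlation over 0.1 in at least 3 pairs): with 0 to 4 shared numbers per comparison, correlations ran from -0.08 to 0.23. In Sox2-KO late ICMs 2 of 4 pairs were over 0.1 and 3 of 4 KO embryos were closest to their own number. With them as a replicate block, Sox13 in Oct4-KO early ICMs was at 1.14 (edgeR adjusted p 0.00916).

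Directions that turned were all of differences without a call. In Sox2-KO early ICMs, Sox13 was at 0.36 with the replicate block and 0.37 over the same embryos without it. In Sox2-KO late ICMs, Sox12 was at 0.54 and 0.40 in these fits, 0.026 with the label set as a block and 1.58 within set 1, and Sox15 was at -0.051 and -0.23 in the first fits, -0.090 by library totals, -0.44 after thinning and -0.36 within set 1. In Oct4-KO morulae, Sox2 was at -0.0070 (RLE), -0.044 (library totals), -0.018 (minimum of 1 CPM), -0.0046 (all embryos), -0.014 (only the groups compared) and -0.015 (DESeq2), and Sox12 at -0.23 with the block and -0.21 without. Sox4 in Oct4-KO late ICMs was at 0.33 within set 2. For the difference between lines in late ICMs, Sox13 was at 0.18 after thinning and Sox21 at -0.19 within set 1. For late minus early ICMs of the Sox2 line, Sox13 was at -0.27 with the block and -0.23 without.

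Leaving out 1 embryo at a time, the count was 0 to 1 in Sox2-KO morulae (lost without Sox2 Ctrl replicate 14), 1 to 2 in Oct4-KO early ICMs, 2 to 3 in Oct4-KO late ICMs (Sox4 joined without KO replicate 2-5), and, leaving out only the 5 Oct4 MWT early ICMs in turn, 0 to 1 for Sox2 MWT against Oct4 MWT (Sox2 joined without Oct4 MWT replicate 1 or 9) and 1 to 2 for Oct4 MWT early to late ICM (Sox2 lost without early replicate 1). Fold changes that turned, none called, ranged in Sox2-KO from -0.036 to 0.18 for Sox15 in morulae, -0.61 to 0.059 for Sox4 in early ICMs, and -0.40 to 0.0045 for Sox12 and -0.13 to 0.29 for Sox15 in late ICMs. Sox2 in Oct4-KO morulae ranged from -0.10 to 0.20, and the difference between lines from -0.15 to 0.25 for Sox21 in morulae and -0.18 to 0.073 for Sox13 in late ICMs. Sox4, with 2 to 40 UMIs in a group, allows only coarse comparisons at this depth.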
